A study of Mus musculus with 6 samples.

Results

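Sphingolipids are membrane lipids built on a ceramide core, and lysosomes take them apart one head group at a time. Each step has its own acid hydrolase, and several of these enzymes reach their lipid only with the help of a small activator protein. Inherited loss of single steps causes storage disorders such as Krabbe, Fabry, Farber and Tay-Sachs disease. Described here are 8 genes of this pathway, Galc, Asah1, Psap, Hexa, Glb1, Gla, Smpd1 and Arsa, of 35905 genes matched and 13247 genes tested. The list was put together from the known pathway, and it was chosen by the difference between the 2 lines in view: Galc was among the genes furthest below their Parental level. The LM2 to Parental values of the 8 genes are therefore a description, with no test.

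RNA sequencing compared 2 lines of cultured mouse breast cancer cells, EO771-tdT-LM2 and EO771-tdT-Parental, called LM2 and Parental here. Both are derivatives of EO771, a mouse mammary tumour line. Both carry the genotype label WT and the tag tdT, and both grew for 48 h in RPMI 1640 with 10% serum to near 75% confluence. Each line gave 3 libraries, and the Parental titles also carry a tag Ac6 that they do not explain. The labels say neither how LM2 arose nor whether the libraries were separate cultures, so p-values measure the spread between these samples only. Libraries held 33922699 to 38182191 estimated counts in LM2 and 36597892 to 45849019 in Parental. Levels are given as CPM, the counts of a gene scaled to a common library size. Log2 CPM correlated at 0.991 to 0.994 (Pearson, over genes) among libraries of the same line, and at 0.962 to 0.964 for libraries of different lines. The label of breast cancer cells was set beside epithelial markers. The keratin Krt8 had 568 ± 10.4 CPM in LM2 and 419.7 ± 6.61 CPM in Parental (SD, n = 3 each). Epcam and Krt14 were higher in LM2 as well, with 15 ± 0.360 CPM in LM2 and 0.154 ± 0.0503 CPM in Parental for Epcam. Cdh1, Krt18 and Krt5, which also define epithelium, were at most 0.125 CPM in LM2 and at most 0.187 CPM in Parental on average. Macrophages are rich in lysosomal enzymes, and their markers were close to absent. Of 10 macrophage and leukocyte markers, 8 lay under 1 CPM in both lines and Adgre1, C1qa and C1qb had no counts. Their summed level was 1.65 to 1.99 CPM in LM2 and 3.64 to 4.31 CPM in Parental, most of it from Cd14 and Lyz2, which were both called lower (edgeR adjusted p = 0.0219 and 9.39e-07). Endothelial markers summed to 4.12 to 4.60 CPM in LM2 and 3.40 to 4.19 CPM in Parental, most of it from Pecam1, which was not called. Cdh5 was called higher, with 0.668 ± 0.0967 CPM in LM2 and 0.180 ± 0.102 CPM in Parental (edgeR adjusted p = 0.000528). The part of such cells in the levels below was not tested, and in bulk RNA fewer cells of a type and less RNA per cell cannot be told apart.

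Galc and Gla stood furthest below their Parental level of the 8 genes. Lysosomal genes are known to share a promoter element with the core CACGTG, which transcription factors of the TFEB family bind. The windows from 250 bases before to 50 bases after the annotated start of these genes are shown because of that element, 5′ to 3′, from RefSeq on GRCm38.p6. Capitals mark CACGTG, which reads the same on both strands.
Galc, chr12:98259410-98259709, minus strand: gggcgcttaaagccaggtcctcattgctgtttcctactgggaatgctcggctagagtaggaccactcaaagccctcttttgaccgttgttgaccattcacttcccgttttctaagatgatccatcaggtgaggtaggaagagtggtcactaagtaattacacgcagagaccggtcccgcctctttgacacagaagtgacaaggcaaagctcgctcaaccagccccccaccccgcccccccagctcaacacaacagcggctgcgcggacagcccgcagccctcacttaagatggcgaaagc
Gla, chrX:134600956-134601255, minus strand: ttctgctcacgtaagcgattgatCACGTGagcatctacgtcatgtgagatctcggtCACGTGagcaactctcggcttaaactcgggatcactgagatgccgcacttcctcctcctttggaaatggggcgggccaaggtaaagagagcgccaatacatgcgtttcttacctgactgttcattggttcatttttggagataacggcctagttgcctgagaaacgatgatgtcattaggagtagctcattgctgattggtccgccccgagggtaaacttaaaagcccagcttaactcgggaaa
The Galc window held no CACGTG. The Gla window held it at 227 and at 194 bases before the start, each time within the longer form TCACGTGA. Windows were found for 7 of the 8 genes. Glb1 had 1 match 48 bases before its start and Arsa 1 match 16 bases before its start, and the windows of Psap, Hexa and Smpd1 had none. Of 32851 mouse promoter windows of this length, 7.15% held CACGTG and 0.974% held TCACGTGA. A match is a description of the letters and does not show that a factor binds there.

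Galc encodes galactosylceramidase, which removes galactose from galactosylceramide, the main glycolipid of myelin, and from its toxic derivative psychosine. Galc had 4.54, 4.0 and 3.35 CPM in LM2 replicates 1 to 3, against 16.8, 17.4 and 16.6 CPM in Parental replicates 1 to 3. The lines were far apart, with the highest LM2 library well under the lowest Parental library. These levels rested on 157, 135 and 128 estimated counts in LM2 and on 763, 632 and 669 in Parental. The means were 3.97 ± 0.596 CPM in LM2 and 16.9 ± 0.436 CPM in Parental (SD, n = 3 each). The log2 fold change was -2.10 ± 0.09 (SE), a level 4.28-fold lower in LM2. Of all tested genes, 0.528% lay more than 4-fold lower in LM2, and Galc was one of these 70 genes. The authors' deposited table gives -2.09 for Galc.

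Galc libraries varied more within LM2 than within Parental, with a coefficient of variation of 15% in LM2 and 2.58% in Parental. Leaving out any 1 library moved the log2 fold change only between -2.21 and -1.99. Words of 31 bases shared with other genes made up 2.87% of the gene's transcripts.

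**Figure D1:**
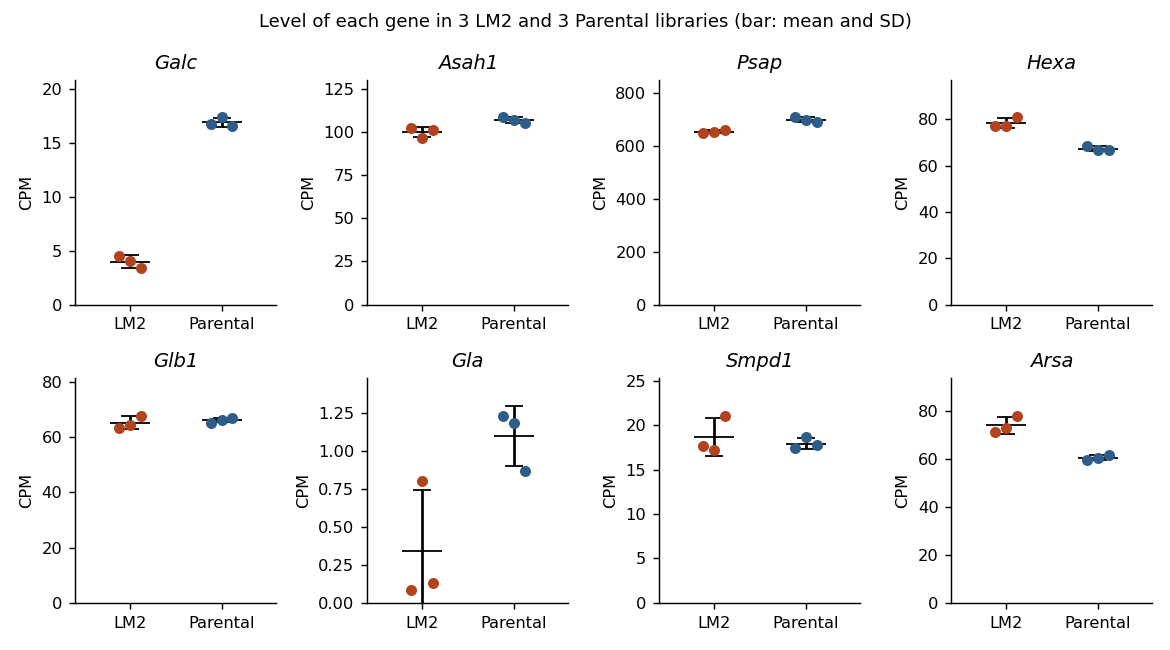
Level of each of the 8 genes in CPM after TMM scaling, one panel per gene with its own linear axis from 0; points are libraries, and bars are the mean and SD of 3 libraries (for Gla in LM2 the SD bar is clipped at 0). Galc lies between 3.35 and 4.54 CPM in LM2 and above 16 CPM in Parental, while Psap, Asah1, Glb1 and Smpd1 lie close together in both lines.

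The lower level of Galc was seen in both of its counted coding transcripts. Galc-201, the main coding transcript, took 85.8 ± 2.40% of the gene's estimated counts in LM2 and 85.9 ± 2.81% in Parental (SD, n = 3 each). It had 139, 113 and 109 counts in LM2 libraries, against 676, 525 and 576 in Parental libraries. The second coding transcript, Galc-203, took 6.19 ± 1.53% in LM2 and 6.02 ± 2.85% in Parental. The retained-intron transcript Galc-206 took 4.70 ± 1.91% in LM2 and 1.34 ± 0.924% in Parental, but it held only 4.0 to 8.0 counts per LM2 library and 2.0 to 14.2 per Parental library. Counts of transcripts of one gene are estimates that split shared reads, so small shares are uncertain.

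**Figure D2:**
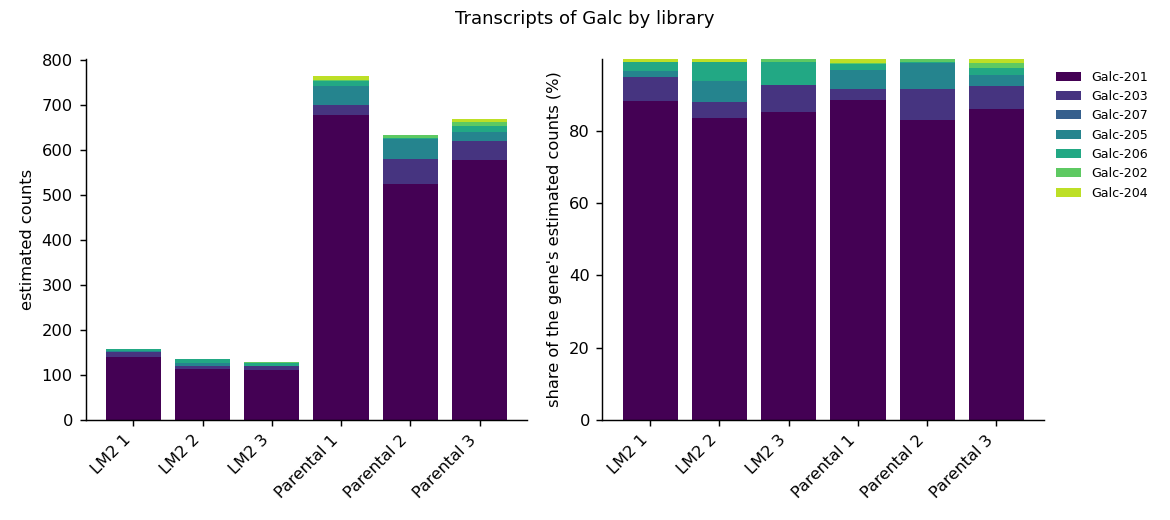
Estimated counts of Galc per library, stacked by transcript (left), and the share of each transcript in the gene's counts in percent (right), for 3 LM2 and 3 Parental libraries. Galc-201 takes the bulk of the counts in every library, near 86% on average in both lines, while the total is far lower in LM2.

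Galc lies on chromosome 12, where most genes around it were also lower in LM2. Of the 10 tested genes on each side in annotation order, 20 in all, 12 were called lower, 1 higher and 7 were not called by edgeR at an adjusted p below 0.05. Over the 460 tested genes of chromosome 12, 51.3% were called lower and 15.9% higher. Over all tested genes, 31.1% were called lower and 31.4% higher. The median log2 fold change of the 20 neighbours was -0.47, against -0.19 for the 460 tested genes of chromosome 12 and -0.0037 for all tested genes. Galc lay below each of the 20 neighbours. Closest to it in value was Foxn3, a forkhead transcription factor and the fifth tested gene on one side, with 2.11 ± 0.189 CPM in LM2 and 8.86 ± 0.669 CPM in Parental. Its log2 fold change was -2.06 (edgeR adjusted p = 1.54e-12), and it was chosen after its values were seen.

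The nearest tested genes above 5 CPM in both lines differed less. Flrt2, an adhesion molecule of neurons and other cells, had 8.93 ± 0.495 CPM in LM2 and 23.4 ± 0.636 CPM in Parental, a log2 fold change of -1.39 (edgeR adjusted p = 1.38e-14). On the other side, Spata7 fell by 0.50 (edgeR adjusted p = 0.000225), the phosphatase Ptpn21 by 0.46 (4.85e-11) and the RNA-binding protein gene Zc3h14 by 0.48 (4.22e-13) on the log2 scale. Gm6863 and Gm2398 lay under 0.4 CPM in both lines and were not called. The part of the chromosome in the level of Galc was not tested.

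**Figure D3:**
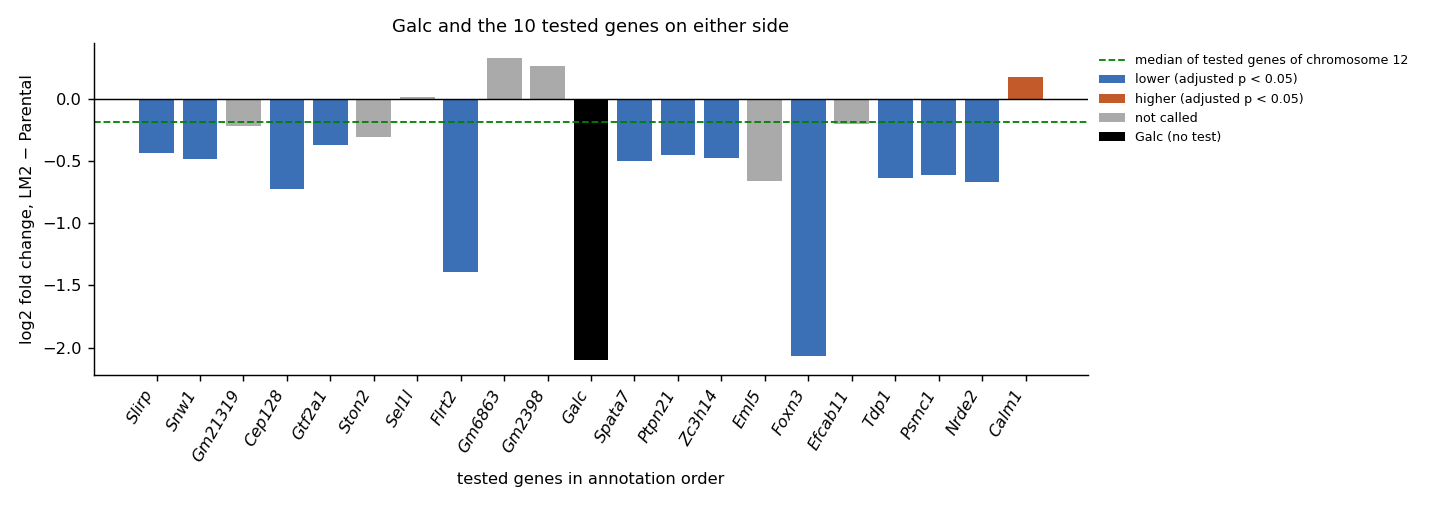
Log2 fold change, LM2 minus Parental, of Galc (black, no test) and of the 10 tested genes on either side in annotation order; blue bars were called lower and orange bars higher by edgeR at an adjusted p below 0.05, and grey bars were not called. The dashed line is the median of chromosome 12, -0.19, and Galc at -2.10 and Foxn3 at -2.06 are the lowest bars.

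Gla encodes alpha-galactosidase A, which cleaves the terminal galactose of globotriaosylceramide and is missing in Fabry disease. It was barely expressed. Gla had 0.0868, 0.801 and 0.131 CPM in LM2 replicates 1 to 3, against 1.23, 1.18 and 0.867 CPM in Parental replicates 1 to 3. The LM2 libraries lay below the Parental ones, although LM2 replicate 2 came close to Parental replicate 3. The underlying estimated counts were 3, 27 and 5 in LM2, against 56, 43 and 35 in Parental. The log2 fold change was -1.71 ± 0.66 (SE). It was -3.28 without LM2 replicate 2, -1.27 without LM2 replicate 1 and -1.31 without LM2 replicate 3, so its size is not settled at this depth. Gla was not retained when 3 libraries had to reach 1 CPM, and the authors' deposited table does not list it. Gla had the lowest TPM of the 8 genes, a level scaled for transcript length,, and a short transcript of 337 bases, Gla-202, gave most of that value. The longer Gla-201 had 18.8 counts in LM2 replicate 2 and none in the other two LM2 libraries, against 18.8 to 37.7 in Parental.

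Psap encodes prosaposin, the precursor of the saposins, which present sphingolipids to Galc, Arsa, Gla and Asah1. It was by far the most abundant of the 8 genes. Psap had 647, 651 and 658 CPM in LM2, against 707, 698 and 690.4 CPM in Parental, and the lines did not overlap. The distance was small, with means of 652 ± 5.73 CPM in LM2 and 699 ± 8.50 CPM in Parental (SD, n = 3 each). The log2 fold change was -0.10 ± 0.02 (SE). Psap-202 took 95.04 ± 0.120% of its counts in LM2 and 95.8 ± 0.962% in Parental. On the TPM scale there were 219 ± 38.3 Psap transcripts per Galc transcript in LM2 and 52.5 ± 4.05 in Parental (SD, n = 3 each).

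Asah1 encodes acid ceramidase, which splits ceramide into sphingosine and a fatty acid and is deficient in Farber disease. Asah1 had 102, 96.6 and 101 CPM in LM2, against 108, 107 and 105 CPM in Parental. The lines did not overlap in CPM, and the log2 fold change was -0.10 ± 0.03 (SE). In TPM they did overlap, with 83.9 to 85.3 in LM2 and 83.7 to 92.3 in Parental. Smpd1 encodes acid sphingomyelinase, which makes ceramide from sphingomyelin and is deficient in Niemann-Pick disease of the A and B types. Smpd1 had 17.6, 17.2 and 21.1 CPM in LM2, against 17.4, 18.6 and 17.7 CPM in Parental. The lines overlapped, and LM2 replicate 3 was above all others. The log2 fold change of Smpd1 was 0.06 ± 0.07 (SE), and -0.04 without LM2 replicate 3.

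Both Asah1 and Psap lie on chromosomes whose genes were mostly lower in LM2. The median log2 fold change was -0.31 over 702 tested genes of chromosome 8, where Asah1 lies, and -0.33 over 662 tested genes of chromosome 10, where Psap lies. Of these, 64.5% on chromosome 8 and 62.8% on chromosome 10 were called lower by edgeR. Asah1 and Psap, at -0.10 each, were thus above the median of their own chromosome and below the median of all genes. The median was 0.03 on chromosomes 7 and 9 and 0.02 on chromosome 15, where Smpd1, Hexa with Glb1, and Arsa lie, and -0.09 on chromosome X, where Gla lies. The part of the chromosome in these levels was not tested.

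Hexa and Arsa were the 2 genes above their Parental level in every LM2 library. Hexa encodes the alpha chain of beta-hexosaminidase A, which trims gangliosides and is lost in Tay-Sachs disease. Hexa had 77.4, 77.1 and 81.0 CPM in LM2, against 68.6, 66.7 and 66.6 CPM in Parental, a log2 fold change of 0.22 ± 0.03 (SE). Arsa encodes arylsulfatase A, which turns sulfatide into galactosylceramide, the substrate of Galc. Arsa had 71.2, 72.8 and 78.0 CPM in LM2, against 59.5, 60.4 and 61.8 CPM in Parental, a log2 fold change of 0.29 ± 0.04 (SE). No LM2 library of either gene reached down to the Parental range. A share of 16.9% of the 31-base words of Arsa, and of 11.4% for Hexa, occurs in other annotated genes, for Hexa in Tmem202, which overlaps it on the other strand and reached at most 0.262 CPM. For Arsa, the retained-intron transcript Arsa-201 held 50.9 ± 3.95% of the counts in LM2 and 53.0 ± 2.54% in Parental, more than the coding Arsa-202 with 46.4 ± 3.49% in LM2 and 43.7 ± 2.50% in Parental.

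Glb1 encodes the lysosomal beta-galactosidase, which acts on gangliosides and on keratan sulfate. Glb1 had 63.2, 64.3 and 67.7 CPM in LM2, against 65.2, 66.0 and 66.7 CPM in Parental. The LM2 libraries spanned the Parental range, and the log2 fold change was -0.02 ± 0.03 (SE). Of its 31-base words 5.13% occur elsewhere, among other places in Tmppe, which overlaps Glb1 on the same strand and reached at most 17.2 CPM.

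In all, 6 of the 8 genes had libraries that did not overlap between the lines, 2 higher and 4 lower in LM2. Among all tested genes 67.0% did not overlap, 33.4% higher and 33.6% lower, and nothing is read from the count since the contrast chose the genes. Galc and Gla were the 2 genes more than 2-fold lower by fitted fold change, against 2.28% of all tested genes. Nothing is read from this count either, since the fall of Galc led to the choice of the list. Gla rested on 3 to 27 counts per LM2 library. With TPM in place of CPM, 5 genes did not overlap, since Asah1 did. The authors' deposited table lists 0.25 for Arsa, 0.22 for Hexa, 0.05 for Smpd1, -0.01 for Glb1, -0.08 for Asah1 and -0.1 for Psap. The order of the 8 genes by TPM was the same in both lines. Psap led with 399 ± 6.18 TPM in LM2 and 419 ± 5.88 TPM in Parental (SD, n = 3 each), ahead of Asah1, Hexa and Glb1. Glb1 with 44.3 ± 1.78 TPM and Arsa with 44.3 ± 2.79 TPM did not differ beyond their spread in LM2, while in Parental Glb1 had 43.9 ± 0.421 TPM and Arsa 36.6 ± 0.580 TPM. Smpd1, Galc and Gla followed. Galc was at 1.85 ± 0.282 TPM in LM2 and 8.0 ± 0.619 TPM in Parental, and Gla at 1.66 ± 0.897 TPM in LM2 and 5.08 ± 1.50 TPM in Parental, so these neighbours overlapped within LM2. The 8 genes summed to 654 ± 13.2 TPM in LM2 and 667 ± 1.65 TPM in Parental, and Galc took 0.284 ± 0.0483% of that sum in LM2 and 1.20 ± 0.0915% in Parental.

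**Figure D4:**
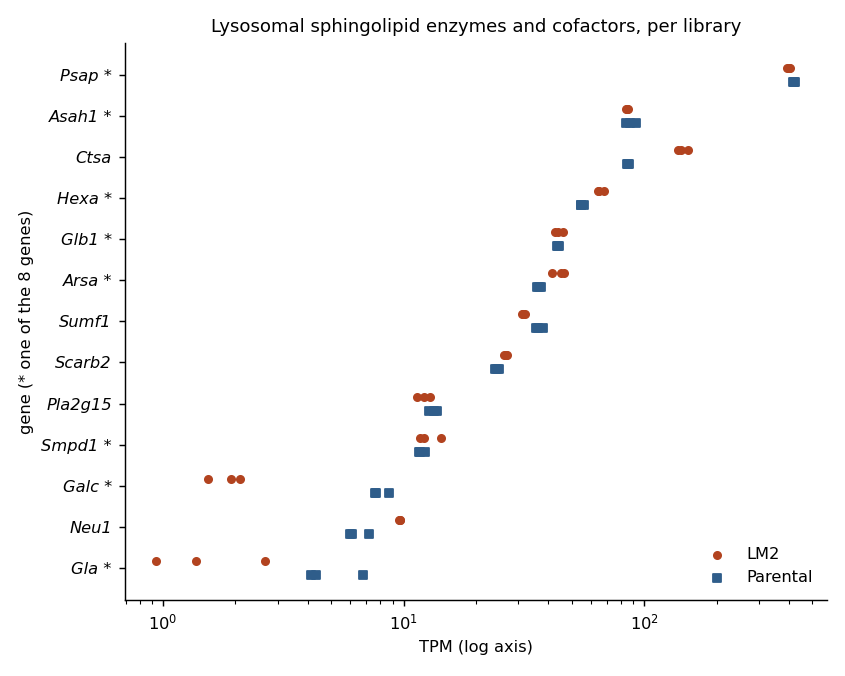
TPM per library on a log axis for the 8 genes (marked with an asterisk) and for Ctsa, Sumf1, Scarb2, Pla2g15 and Neu1 of the partner list, with LM2 circles drawn above Parental squares. Psap stands at the top at 399 TPM in LM2 and 419 TPM in Parental on average, and Galc and Gla are the rows where the LM2 points sit far left of the Parental points.

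Partners of these genes were read from a list of 10 other lysosomal sphingolipid enzymes and cofactors, of which 8 were tested. By edgeR, 4 were called higher, 2 lower and 2 not, which is 6 of 8 against 62.4% of all tested genes. The median log2 fold change was 0.08, against -0.0037 for all tested genes. The largest rises were in the partners that bind Glb1 in a complex. Ctsa, the protective protein of that complex, had 128 ± 2.71 CPM in LM2 and 85.1 ± 1.10 CPM in Parental (SD, n = 3 each). Its log2 fold change was 0.58 ± 0.03 (edgeR adjusted p = 1.03e-13). Neu1, the lysosomal sialidase, had 15.2, 15.4 and 15.3 CPM in LM2 and averaged 9.90 ± 0.144 CPM in Parental, a log2 fold change of 0.63 ± 0.06 (edgeR adjusted p = 1.36e-08). Per length, there were 4.60 ± 0.217 Glb1 transcripts per Neu1 transcript in LM2 and 6.90 ± 0.627 in Parental. Of the 31-base words of Ctsa, 14.6% also occur elsewhere, among other places in Pltp and Neurl2, which overlap it. Pltp, on the other strand, had 57.5 ± 0.574 CPM in LM2 and 99.2 ± 3.0 CPM in Parental, and the split of reads between it and Ctsa was not tested.

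Sumf1, which activates sulfatases such as Arsa, fell to 49.4 ± 1.15 CPM in LM2, against 58.2 ± 2.50 CPM in Parental (-0.24 ± 0.04, edgeR adjusted p = 1.27e-05). Scarb2, a lysosomal membrane protein that carries a hydrolase to the lysosome, was 1.07-fold higher (edgeR adjusted p = 0.0118), a call lost without Parental replicate 2 (0.0587) or LM2 replicate 2 (0.0514), with no low-count filter (0.0882) and with an offset for average transcript length (0.0689). The lysosomal phospholipase gene Pla2g15 was 1.12-fold lower (edgeR adjusted p = 0.0204). Its call was lost without Parental replicate 1 (0.0623) or 3 (0.0635), or LM2 replicate 1 (0.0657) or 3 (0.0581), with DESeq2 (0.0689) and with the length offset (0.0587). Gm2a, the activator that lifts ganglioside to Hexa, had 10, 3 and 7 counts in LM2, against 1, 3 and 5 in Parental, and Neu4 was lower still, so neither was tested.

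The gene for the synthesis of galactosylceramide, and the gene for its sulfation, were at or near 0 in both lines. Ugt8a, which adds galactose to ceramide and so makes galactosylceramide, had 0 counts in all 6 libraries, which allows up to 0.0786 to 0.0890 CPM in LM2 and 0.0659 to 0.0826 CPM in Parental at a limit of 3 counts per library (counting error only). Gal3st1, which sulfates that lipid, had 3, 2 and 4 counts in LM2, against 0, 3 and 3 in Parental. Only some genes of the glucose branch were expressed. On average, 8 of the 15 genes of glycosphingolipid synthesis, Ugt8a and Gal3st1 included, lay under 1 CPM in both lines. Of the 15, 3 had no counts. B4galnt1, for example, had 0.105 ± 0.0487 CPM in LM2 and 0.207 ± 0.0744 CPM in Parental. In this list 8 genes were tested (median log2 fold change 0.06). By edgeR 4 were called higher, none lower and 4 not, against 31.4% higher and 31.1% lower among all tested genes. At an unadjusted p below 0.05, 1 gene was lower, and DESeq2 and limma voom called 0 lower. Ugcg, the glucosylceramide synthase, rose to 104 ± 3.65 CPM in LM2, against 74.3 ± 0.223 CPM in Parental (log2 fold change 0.48 ± 0.03, edgeR adjusted p = 1.21e-11). St3gal5, which makes the first ganglioside, rose 1.42-fold to 29.8 ± 1.91 CPM in LM2 (edgeR adjusted p = 2.61e-07). A4galt, which makes the substrate of Gla, was 1.13-fold higher, at 13.9 ± 0.859 CPM in LM2 and 12.3 ± 0.365 CPM in Parental (edgeR adjusted p = 0.0202). That call was lost without Parental replicate 1 (0.0884), LM2 replicate 2 (0.0853) or LM2 replicate 3 (0.102), with no low-count filter (0.0732), with DESeq2 (0.0715) and with the length offset (0.104). The sialyltransferase St3gal2 was 1.06-fold higher (edgeR adjusted p = 0.0314), a call lost without Parental replicate 3 (0.214) or LM2 replicate 3 (0.117), with no low-count filter (0.140) and with DESeq2 (0.0639). With the length offset the log2 fold change of St3gal2 was 0.01, against 0.09 without it (adjusted p = 0.901). Without LM2 replicate 3 the list held 2 called genes, and without LM2 replicate 2 it held 3 called higher and 1 called lower. B4galt5, the lactosylceramide synthase, had 171 ± 3.25 CPM in LM2 and 166 ± 6.15 CPM in Parental, and the transfer protein gene Gltp 66.7 ± 1.73 CPM in LM2 and 66.4 ± 2.34 CPM in Parental. Neither was called.

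Genes that act on ceramide outside the lysosome went both ways. Of 14 genes of non-lysosomal breakdown 13 were tested, and 3 were called higher, 6 lower and 4 not (median log2 fold change -0.08). For comparison, 31.4% of all tested genes were called higher and 31.1% lower. The neutral sphingomyelinase Smpd3 rose 1.47-fold to 17.2 ± 0.783 CPM in LM2 (edgeR adjusted p = 6.00e-08), the neutral ceramidase Asah2 1.43-fold to 20.4 ± 0.218 CPM (3.68e-08) and the non-lysosomal glucosylceramidase Gba2 1.31-fold to 8.21 ± 0.297 CPM (0.00109). Sgpl1, the lyase that ends the pathway, fell 1.20-fold to 126 ± 5.79 CPM in LM2 (edgeR adjusted p = 1.42e-07). Sphk2, with 59.3 ± 1.23 CPM in LM2 and 58.6 ± 0.641 CPM in Parental, and Smpd2, with 15.2 ± 0.341 CPM in LM2 and 15.6 ± 0.987 CPM in Parental, were not called. The Golgi ceramidase Acer2 lay below the level set for naming and was picked after its values were seen. It had 0.682 ± 0.181 CPM in LM2 and 3.67 ± 0.400 CPM in Parental, a log2 fold change of -2.42 ± 0.21 (edgeR adjusted p = 1.51e-09) that rests on 28, 16 and 29 counts in LM2, against 182, 137 and 130 in Parental.

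Of 22 genes of ceramide and sphingomyelin synthesis 17 were tested, and 5 were called higher, 8 lower and 4 not (median log2 fold change -0.11). Among all tested genes 31.4% were called higher and 31.1% lower. Degs1, the desaturase that completes ceramide, rose 1.28-fold to 133 ± 5.08 CPM in LM2 (edgeR adjusted p = 4.83e-09), and the sphingomyelin synthase Sgms1 1.42-fold to 36.1 ± 0.634 CPM (4.07e-09). Ormdl2, a brake on the first enzyme, fell 1.49-fold to 16.4 ± 1.31 CPM in LM2 (edgeR adjusted p = 1.10e-07), and the ceramide carrier gene Col4a3bp 1.28-fold to 71.6 ± 1.31 CPM (8.35e-10). The relatives of Ormdl2 went both ways. Ormdl3 rose 1.19-fold to 28.3 ± 1.19 CPM in LM2 (edgeR adjusted p = 0.000374) and Ormdl1 fell 1.15-fold to 10.8 ± 0.559 CPM (0.0192). The ceramide synthases Cers2, with 233 ± 4.96 CPM in LM2 and 227 ± 2.94 CPM in Parental, and Cers6, with 43.0 ± 0.556 CPM in LM2 and 41.4 ± 1.22 CPM in Parental, were not called. With the length offset Cers2 was called higher, at a log2 fold change of 0.11 against 0.04 without it (adjusted p = 0.0194). Cers3, which was also picked after its values were seen, had 2.66 ± 0.372 CPM in LM2 and 0.516 ± 0.0468 CPM in Parental, a log2 fold change of 2.36 ± 0.24 (edgeR adjusted p = 1.64e-08) that rests on 103, 76 and 105 counts in LM2, against 22, 18 and 23 in Parental.

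Lysosomal hydrolases of other substrates were split evenly. Of 23, 22 were tested, with 9 called higher, 9 lower and 4 not by edgeR (median log2 fold change 0.06). Among all tested genes 31.4% were called higher and 31.1% lower. Ids, which removes sulfate from glycosaminoglycans, fell 2.05-fold to 32.3 ± 2.03 CPM in LM2, against 66.0 ± 0.191 CPM in Parental (edgeR adjusted p = 4.51e-15). Ids was the one tested gene of the list more than 2-fold lower, against 2.28% of all tested genes. In the other direction 2 genes, Acp5 and Smpdl3a, were more than 2-fold higher. Acp5, picked after its values were seen, had 4.57 ± 0.643 CPM in LM2 and 2.07 ± 0.425 CPM in Parental (edgeR adjusted p = 4.07e-06). Man2b1, an alpha-mannosidase, fell 1.59-fold to 38.3 ± 2.46 CPM in LM2 (7.88e-12) and Aga 1.50-fold to 10.2 ± 0.306 CPM (1.01e-07). Manba, a beta-mannosidase, rose 1.89-fold to 36.6 ± 1.21 CPM in LM2 (edgeR adjusted p = 7.62e-13). Smpdl3a, a relative of Smpd1 that was also picked after its values were seen, had 1.75 ± 0.103 CPM in LM2 and 0.0165 ± 0.0286 CPM in Parental, where only 2 counts were found in all. Fuca1, a fucosidase, was not called, with 33.5 ± 0.344 CPM in LM2 and 33.1 ± 0.945 CPM in Parental.

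Hydrolases reach the lysosome with a mannose phosphate tag that receptors in the Golgi recognise. Of 10 sorting genes, 2 were called higher, 3 lower and 5 not (median log2 fold change -0.09). For this list and the next, the shares among all tested genes were 31.4% higher and 31.1% lower. Gnptab, the enzyme that starts the tag, fell to 79.9 ± 0.934 CPM in LM2, against 139 ± 4.76 CPM in Parental (log2 fold change -0.79 ± 0.03, edgeR adjusted p = 1.55e-15). Nagpa, which uncovers the tag, fell 1.24-fold to 28.9 ± 0.518 CPM in LM2 (4.27e-06). The smaller receptor gene M6pr fell 1.41-fold to 187 ± 4.18 CPM in LM2 (edgeR adjusted p = 1.88e-13), while the larger receptor gene Igf2r rose 1.76-fold to 48.8 ± 2.15 CPM (8.68e-13). The adaptor genes Gga3, with 44.2 ± 0.548 CPM in LM2 and 42.3 ± 1.50 CPM in Parental, and Gga2, with 40.4 ± 0.894 CPM in LM2 and 42.7 ± 0.487 CPM in Parental, were not called. Of 15 genes of the lysosomal membrane, lipid export and acidification, 6 were called higher, 7 lower and 2 not (median -0.12). Ostm1, a partner of the chloride transporter, fell 1.48-fold (edgeR adjusted p = 8.17e-10), Atp6v1b2, a proton pump subunit, 1.34-fold (5.21e-11) and the cholesterol exporter Npc1 1.33-fold (4.80e-08). The gene of that chloride transporter, Clcn7, rose 1.23-fold to 109 ± 2.93 CPM in LM2, against 89.0 ± 1.80 CPM in Parental (edgeR adjusted p = 1.93e-08). The membrane protein gene Lamp2 rose 1.31-fold to 91.3 ± 3.92 CPM in LM2 (edgeR adjusted p = 1.33e-09). Its more abundant relative Lamp1 fell 1.30-fold to 291 ± 6.47 CPM in LM2, against 378 ± 2.37 CPM in Parental (edgeR adjusted p = 9.68e-12). The channel gene Mcoln1, with 21.2 ± 1.31 CPM in LM2 and 23.0 ± 1.57 CPM in Parental, was not called (edgeR adjusted p = 0.102), but was called without Parental replicate 2 (0.0366) or LM2 replicate 3 (0.0260) and with no low-count filter (0.0462). The pump subunit Atp6v0d1, with 65.1 ± 1.74 CPM in LM2 and 65.1 ± 0.803 CPM in Parental, was not called. The other pump genes of the list went both ways. Atp6v1a, Atp6v0c, Atp6v1h and Atp6ap1 were called higher and Atp6v0a1 lower.

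Of 5 transcription factors of lysosomal genes 4 were tested, and 3 were called lower, none higher and 1 not by edgeR (median log2 fold change -0.32). For comparison, 31.1% of all tested genes were called lower and 31.4% higher. At an unadjusted p below 0.05, and with DESeq2 and limma voom, 0 of the 4 factors were higher. Tfeb fell 1.42-fold to 10.3 ± 0.622 CPM in LM2 (edgeR adjusted p = 9.87e-07) and its relative Mitf 1.45-fold to 16.3 ± 0.735 CPM (1.76e-08). Zkscan3, a repressor of lysosomal genes, fell 1.09-fold (edgeR adjusted p = 0.0225), a call lost without Parental replicate 3 (0.0791) or LM2 replicate 2 (0.0670), with DESeq2 (0.0651) and with the length offset (0.0928). In each of these 4 settings, 2 of the 4 factors were called. Tfe3, the most abundant of the family, had 48.7 ± 0.962 CPM in LM2 and 49.6 ± 0.774 CPM in Parental and was not called.

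**Figure D5:**
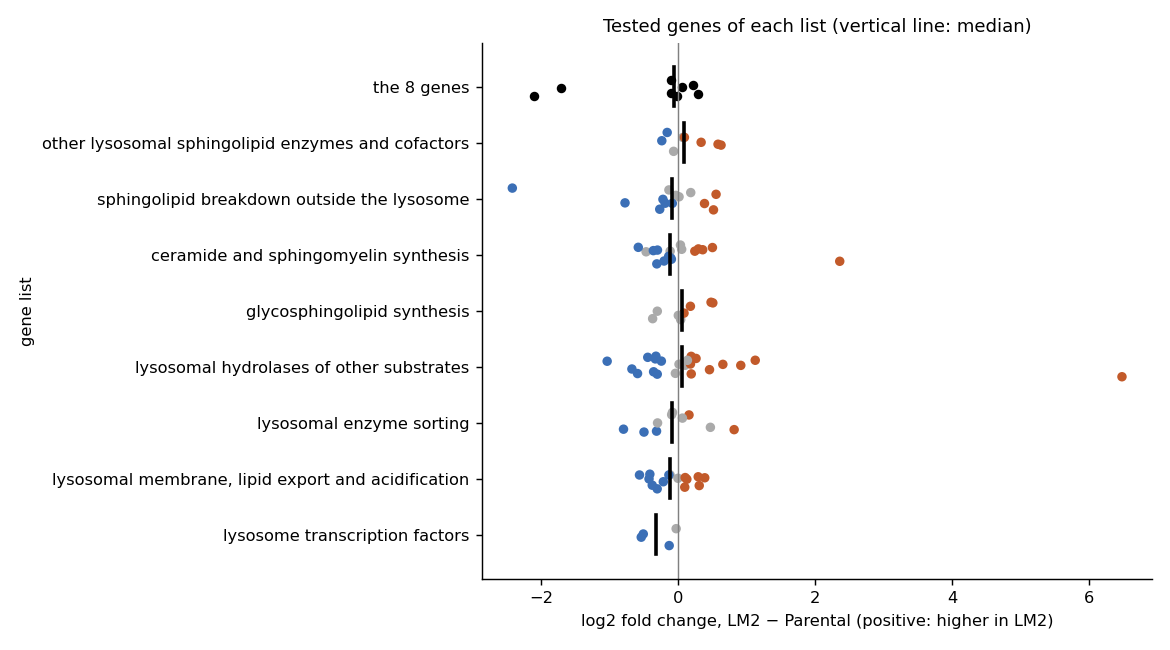
Log2 fold change, LM2 minus Parental, of each tested gene of 9 lists, with the 8 genes in black at the top; in the other rows orange genes were called higher, blue genes lower and grey genes not called by edgeR, and vertical lines are medians. Galc and Gla are the leftmost black points, and the medians of all rows lie between -0.32 and 0.08.

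The genes whose pattern over the 6 libraries was most like that of Galc were sought among 9584 named genes of at least 5 CPM in one line. Likeness was the Euclidean distance of mean-centred log2 CPM, where 0 is identical. Closest was the synaptic scaffold gene Shank2 at a distance of 0.175, with 5.02 ± 0.443 CPM in LM2 and 21.0 ± 0.899 CPM in Parental. It was followed by Foxl1 at 0.278, Zdhhc2 at 0.285, Prickle2 at 0.386 and Bche at 0.392. Shank2 lies on chromosome 7, Foxl1 and Zdhhc2 on chromosome 8, Prickle2 on chromosome 6 and Bche on chromosome 3. The likeness was set mostly by the difference between the lines and is a description over 6 libraries.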

How the data were processed

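Libraries made with an mRNA kit, per the labels, from 3 LM2 and 3 Parental samples were sequenced, and groups and replicate numbers come from the sample titles. The authors deposited, for each of 117486 transcripts, its estimated counts and TPM beside its lengths, made with kallisto 0.46.2 on GRCm39 per the submitters' processing notes; the sources used here do not name a transcript set or strand setting. TPM was scaled for effective length and depth by the authors. The authors deposited log2 fold changes of 11004 named genes; direction and log base were read from their closeness to the values computed here (Pearson r = 0.957 across genes).

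Transcripts were joined to genes by identifier with GENCODE M21 (99.1% matched), which is on GRCm38. It gave names, transcript types, chromosomes, gene positions and strands, and the transcript sequences for shared words, but no counts. Unmatched transcripts held 0.426% to 0.448% of counts and were left out. Counts were summed per gene, rounded, filtered with filterByExpr, scaled by TMM and tested with the robust quasi-likelihood test of edgeR 4.0.16 in R 4.3.3, LM2 minus Parental, no covariate, with Benjamini-Hochberg adjustment over 13247 genes and a threshold of 0.05. Standard errors were derived from the fold change and F. The test was checked on simulated data in which far fewer genes changed than were called here, so the check does not cover so broad a difference. Alternatives were another scaling, 2 other filters, DESeq2 1.42.0, limma 3.58.1 voom, a length offset, a replicate block and leaving out each library.

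The 8 genes and all lists were chosen with earlier results of these data known. Named from each list were up to 4 called genes, those furthest from 0 among genes that reached 5 CPM, and up to 2 abundant genes that were not called. Partner enzymes, the 3 tested genes on each side of Galc and the 5 genes most like it were also named. Some genes that this rule takes in are not reported here. Replicates were further apart than counting noise (chi-square per degree of freedom 3.06 to 7.56). Shared words were counted on both strands of the M21 transcripts.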

Additional observations from a re-analysis of the deposited data

How the results depend on the processing

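Of 13247 tested genes, 8272 were called by edgeR, and 6985 with the transcript length offset, 7708 with DESeq2 and 7778 to 8258 when a library was left out. Counts per list stayed within 1.5 times of the value in the report in all but one list. In glycosphingolipid synthesis 4 genes were called, against 2 with no low-count filter, 2 with DESeq2, 2 with the length offset and 2 to 4 when a library was left out; the cause was not tested. Of 59 tested genes taken in by the naming rule, 51 stayed called or not called in all 13 settings. None changed direction where it was called, and direction was not compared where a gene was not called in either fit. Galc kept a log2 fold change of -2.21 to -1.99 in all 15 settings. Replicate numbers did not pair the libraries: deviations of same-numbered libraries correlated at -0.078, 0.0452 and 0.0147, and the replicate block gave 8250 calls. Depth limits Gla, with 3 to 27 counts per LM2 library, and Gm2a, with 1 to 10 counts per library.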
